A study of Mus musculus with 16 samples.

Results

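The mouse genes of the amyloid precursor protein family and of the enzymes that cleave its members were followed in bulk brain RNA. They were taken from the count matrix by their symbols, as the APP family (App, Aplp1 and Aplp2), the β-secretase (Bace1), parts of the γ-secretase (Psen2, Ncstn, Aph1a and Psenen) and the α-secretase (Adam10). These are 9 of the 55487 genes in the matrix, and all 9 were among the 18609 genes tested, which had at least 10 counts in at least 4 mice. RNA came from the brains of 16 female mice, 4 in each of 4 groups of genotype and treatment, heterozygous for their transgenes and on a C57BL/6J background. CETPtg mice carry a human transgene for CETP, a plasma lipid transfer protein that mice lack. APPtg/CETPtg mice carry the CETP transgene as well, together with a human APP751 transgene with the Swedish and Indiana mutations, which the Thy1 promoter drives in neurons, so that both genotypes differ in the APP transgene and share the CETP transgene. From 11 weeks of age, mice of all 4 groups ate a diet with 1% cholesterol. For 11 weeks, they received daily intraperitoneal injections of the CETP inhibitor evacetrapib at 30 mg per kg or of its vehicle, Kolliphor EL with glucose. The mice were 21 weeks old by the sources used here, although the start and length of the treatment add up to slightly more. The counts on genes summed to between 21391335 and 55453789 per mouse, and the total was above that of every CETPtg mouse in 1 APPtg/CETPtg mouse (vehicle replicate S8) and below that of every CETPtg mouse in the other 7. Libraries of the genotypes lay in separate columns of the index plate, 11 and 12 for CETPtg and 8 and 9 for APPtg/CETPtg, and those of the treatments in separate lines of it, so that position and group cannot be told apart.

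APP is a transmembrane protein of neurons and other cells that is cut along alternative routes. The β-secretase cuts it outside the membrane, and the γ-secretase, a complex of a presenilin, nicastrin, an APH1 protein and the presenilin enhancer, then releases the amyloid-β peptide from the remaining stub within the membrane. The α-secretase cuts inside the amyloid-β sequence, so that the peptide is not formed, and the APP-like proteins 1 and 2 are processed by much the same enzymes but hold no amyloid-β sequence.

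Levels were compared between genes as CPM per kb, which is the CPM at library sizes scaled by TMM, divided by the summed length of all exons of the gene. On this scale the APP family stood far above its secretases in the 16 mice. Aplp1, the APP-like protein of neurons, had the highest mean, at 471 ± 25.0 CPM per kb (SD, n = 16), followed by App with 171 ± 14.6 CPM per kb and Aplp2 with 104 ± 3.24 CPM per kb, each above the next in 16 of 16 mice. The secretase genes began well below Aplp2 on this scale. Ncstn, which encodes nicastrin, had 17.1 ± 0.966 CPM per kb, Bace1 had 16.8 ± 0.701, Psenen, which encodes the presenilin enhancer, had 15.9 ± 1.45, and Adam10 had 14.9 ± 0.913 CPM per kb. The ranges over mice of neighbours among these 4 genes overlapped, and the order of Ncstn over Bace1 held in 11 of the 16 mice, that of Bace1 over Psenen in 11 and that of Psenen over Adam10 in 9, so their order was not resolved. Aph1a followed with 8.28 ± 0.547 CPM per kb, and Psen2, the presenilin of the set, was lowest with 4.26 ± 0.315 CPM per kb, each below the gene before it in 16 of 16 mice. With the longest transcript in place of all exons, the order of the APP family was the same, but Psenen had 28.7 ± 2.61 CPM per kb and stood above Ncstn, with 22.6 ± 1.27, in 16 of 16 mice. In that setting Aph1a, with 9.98 ± 0.659 CPM per kb, and Psen2, with 9.14 ± 0.676, lay close together, with overlapping ranges and Aph1a above Psen2 in 14 of 16 mice.

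**Figure D1:**
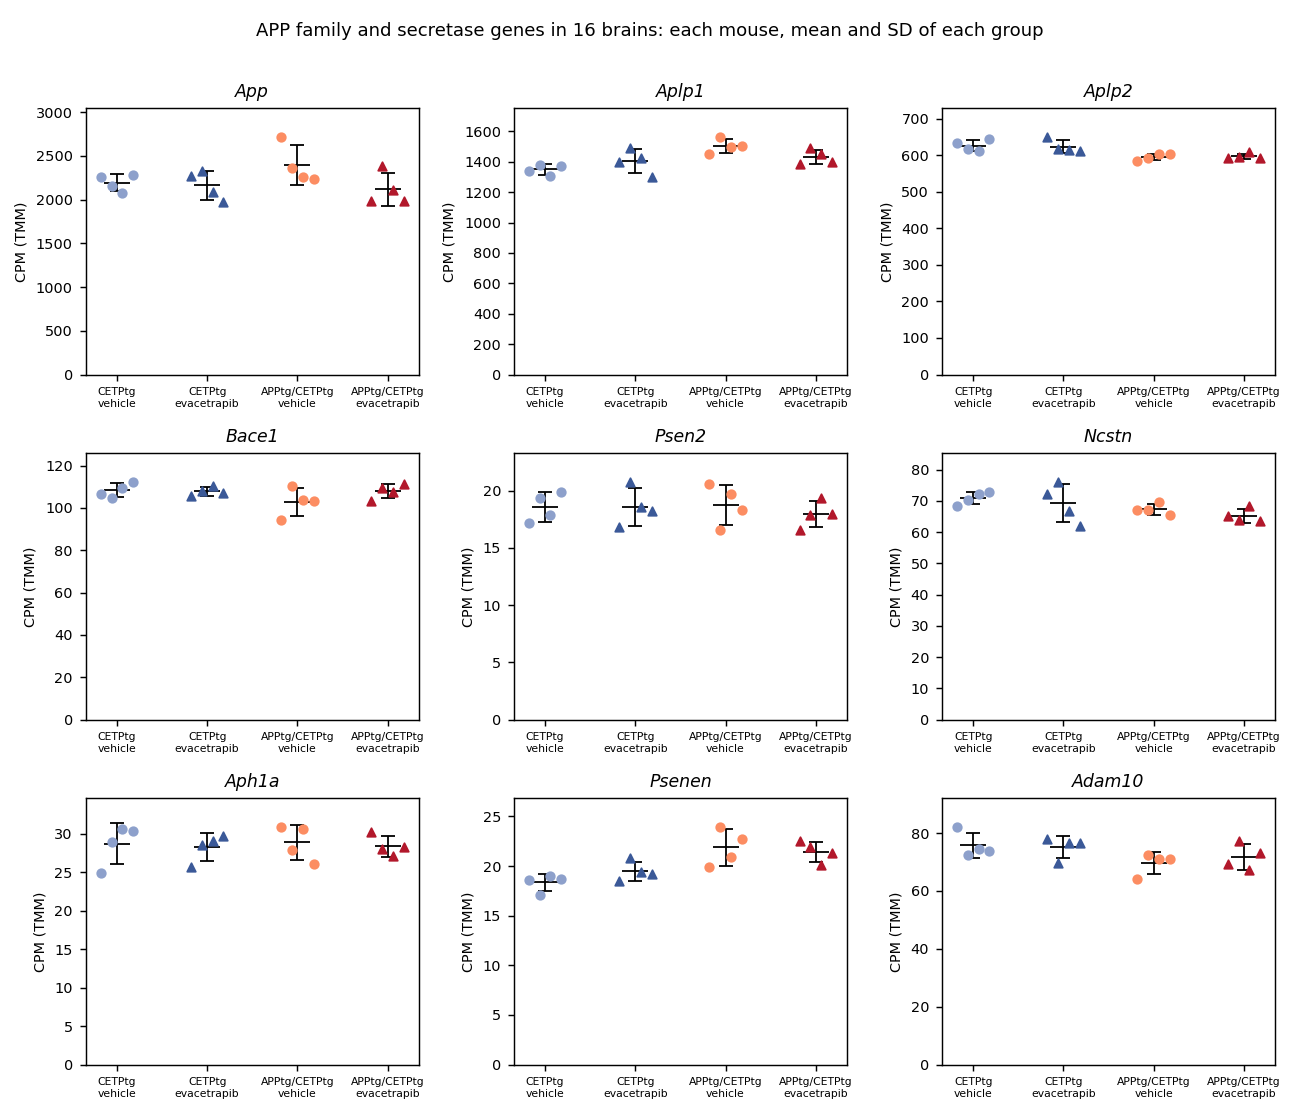
CPM (TMM-scaled, linear axes from 0) of each member in each of the 16 mice by group (circles, vehicle; triangles, evacetrapib), with the mean and SD of each group of 4 as bars. Within each gene the groups lie close together. Relative to the level of the gene, the widest shift between genotypes is that of Psenen. It lies at 18.4 and 19.5 CPM in the CETPtg groups and 21.9 and 21.5 CPM in the APPtg/CETPtg groups.

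Together the 9 members made up between 0.419% and 0.505% of the TMM-scaled library size of a mouse. The lowest share was that of CETPtg evacetrapib replicate D and the highest that of APPtg/CETPtg vehicle replicate S5. The lowest single count was 367, for Psen2 in APPtg/CETPtg vehicle replicate S6, and the highest was 124179, for App in vehicle replicate S8 of the same genotype. None of the 9 was near the limit of counting. Variation between mice beyond counting noise was also small, with a biological coefficient of variation between 4.11% for Aplp2 and 7.41% for Psen2, against a median of 8.69% over all genes tested. Sampling noise alone was exceeded in all 24 pairs of mice within groups, with a chi-square over its degrees of freedom between 4.44 and 19.3.

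In the GENCODE M21 annotation of GRCm38, the members lie on 5 chromosomes. App (ENSMUSG00000022892) is on chromosome 16, 84949685 to 85173766 on the minus strand, Aplp1 (ENSMUSG00000006651) on chromosome 7, 30434982 to 30445535 on the minus strand, and Aplp2 (ENSMUSG00000031996) on chromosome 9, 31149557 to 31211815 on the minus strand. Bace1 (ENSMUSG00000032086) spans 45838580 to 45864399 and Adam10 (ENSMUSG00000054693) 70678997 to 70780229, both on the plus strand of chromosome 9. Of the γ-secretase genes, Psen2 (ENSMUSG00000010609, 180227004 to 180263438) and Ncstn (ENSMUSG00000003458, 172066013 to 172082795) are on the minus strand of chromosome 1. Aph1a (ENSMUSG00000015750) is on the plus strand of chromosome 3, 95893969 to 95898288, and Psenen (ENSMUSG00000036835) on the minus strand of chromosome 7, 30561863 to 30563627. Psenen is the shortest of the 9, with 1275 bases of exons, and App the longest, with 12996. Exons of 5 members share bases with genes on the opposite strand, with the largest overlap of each being 15.4% of the exon bases of Bace1 with Rnf214, 12.9% of Aph1a with Car14, 9.33% of Psenen with U2af1l4, 4.91% of Ncstn with Copa and 0.869% of App with Gm49227. Bace1 also shares 15.0% with Gm49338 and 2.13% with Gm16536, and Psenen 8.71% with Gm49396. The library kit keeps the strand, but whether the counting used it is not given in the sources used here, so the counts of these genes may hold reads of their neighbours.

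The part of mouse App that the β- and γ-secretases act on, and in which the transgene carries its mutations, is shown as the genome has it. Codons 666 to 717 of the 770 of the longest protein lie in exons 16 and 17 of 18, within chr16:84962782-84965738 (GRCm38, minus strand), and are printed here joined and 5′ to 3′ as 156 bases, of which codons 672 to 713 encode amyloid-β. Capitals mark the codons at the place of the Swedish mutations (670 and 671) and of the Indiana mutation (717), unmutated in the mouse genome.
App: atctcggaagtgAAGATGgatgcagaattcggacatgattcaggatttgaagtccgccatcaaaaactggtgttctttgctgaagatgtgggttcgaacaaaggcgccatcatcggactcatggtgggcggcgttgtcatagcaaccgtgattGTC

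The comparison of genotypes asks how the endogenous genes stand in brains with the mutant APP transgene. By the thresholds of the study on adjusted p and fold, 1 of the 9 members passed, and that gene was Psenen, which was higher in APPtg/CETPtg mice. Over all genes tested, 17.7% passed (3299, of which 1740 were higher and 1559 lower), so 1 of 9 is near the background and is not a result about the members as a list. At an unadjusted p below 0.05 there were 5 of the 9 members and 5685 of the 18609 genes. The median log2 fold change was -0.02 over the members and 0.00 over all genes tested. By the Wald test of DESeq2, 3 members and 3719 genes passed, and by limma-voom 1 member and 3371 genes. Thy1, whose promoter drives the transgene, served as the check of the genotype labels: its CPM lay between 684 and 807 in the 8 CETPtg and between 865 and 2063 in the 8 APPtg/CETPtg mice, so that the genotypes did not overlap.

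Psenen, the smallest part of the γ-secretase, which is needed for the presenilin to become active, had 18.6, 17.1, 19.0 and 18.7 CPM in vehicle-treated CETPtg mice (replicates S1 to S4) and 18.5, 20.8, 19.4 and 19.2 CPM in evacetrapib-treated CETPtg mice (A to D). In APPtg/CETPtg mice it had 19.9, 24.0, 20.96 and 22.7 CPM with vehicle (S5 to S8) and 22.5, 21.9, 20.1 and 21.3 CPM with evacetrapib (E to H). All 8 APPtg/CETPtg mice were above the median of the CETPtg mice, 18.9 CPM, and 6 of the 8 were above every CETPtg mouse, while S5 and G lay below CETPtg replicate B. Under vehicle the genotypes did not overlap in this gene. The fold was 1.15 (95% interval 1.07 to 1.23), or 0.20 on the log2 scale with a standard error of 0.046 (adjusted p = 0.00567 by edgeR with the Benjamini-Hochberg method, rank 1189 of 18609). When every mouse was dropped in turn, Psenen passed in all 16 fits (adjusted p between 0.00277 and 0.0166).

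The call on Psenen was lost when a trend with gene length and base composition was taken out, an alternative chosen after seeing the data. In the comparison of genotypes, the median log2 fold change ran from 0.09 in the quintile of genes with the shortest exons, which holds Psenen, to -0.07 in the quintile with the longest, which holds App. By GC content of the longest transcript, it ran from -0.10 in the lowest quintile, which holds Adam10, to 0.08 in the highest, which holds Aplp1. In each mouse the slope of log2 CPM over genes, relative to the mean of all mice, was between 0.00717 and 0.0325 per doubling of exon length in CETPtg mice and between -0.0363 and -0.00583 in APPtg/CETPtg mice, with no overlap (exact permutation test, two-sided, p = 0.000408, the smallest that 4900 labelings can give). The slope per 10 points of GC differed by 0.0980 (exact permutation p = 0.00245), and neither slope differed detectably between treatments (exact permutation p = 0.932 for length and 0.979 for GC). With both trends removed from each mouse, 1614 genes passed (1063 higher and 551 lower), of which 1251 were among the 3299, and 0 of the 9 members, with 3 of them at an unadjusted p below 0.05. Psenen then had a log2 fold change of 0.11 (adjusted p = 0.147, edgeR), and Adam10 moved from -0.09 to -0.01. App moved the other way, from 0.05 to 0.16 (adjusted p = 0.115, edgeR), and Ncstn from -0.08 to -0.11 (adjusted p = 0.0639). Library, plate column and genotype go together here, and the part that each has in the trend cannot be told apart.

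**Figure D2:**
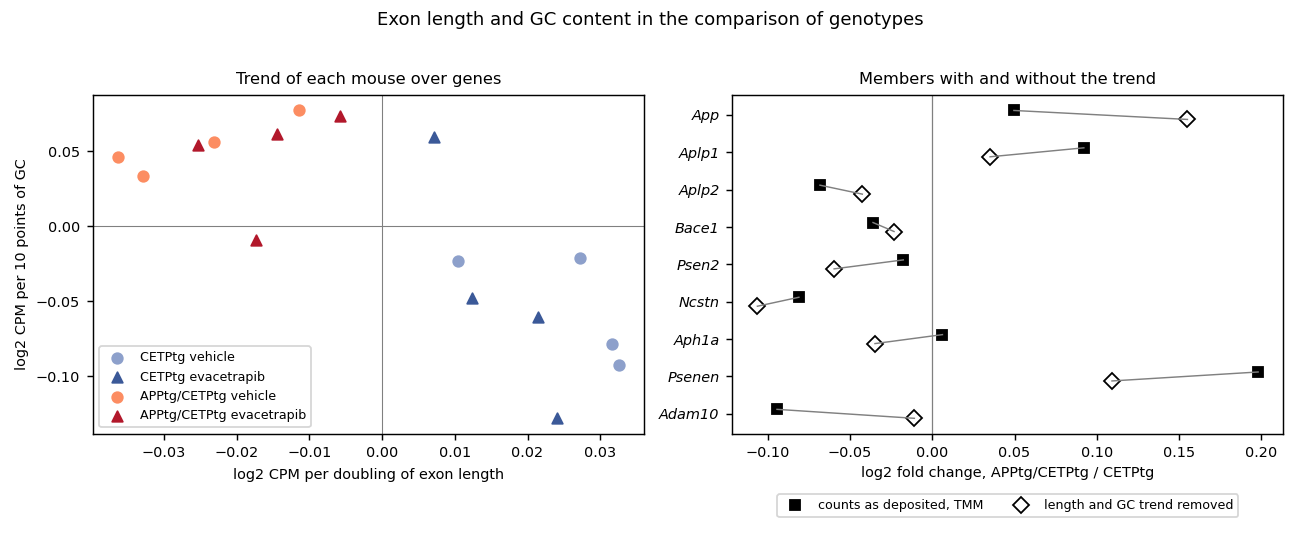
Left, the slope of log2 CPM over genes per doubling of exon length (x) and per 10 points of GC content (y) in each of the 16 mice by group. Right, log2 fold change between APPtg/CETPtg and CETPtg mice of each member from the counts as deposited (squares) and with the trend of each mouse removed (diamonds), where Psenen goes from 0.20 to 0.11 and App from 0.05 to 0.16.

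None of the 3 genes of the APP family passed between genotypes by edgeR, and which of them differed most depended on whether the length and GC trend was removed. App had 2253, 2161, 2073 and 2284 CPM in vehicle-treated (S1 to S4) and 2265, 2322, 2093 and 1968 CPM in evacetrapib-treated CETPtg mice (A to D). In APPtg/CETPtg mice, it had 2720.3, 2366, 2261 and 2231 CPM with vehicle (S5 to S8) and 1989, 2389, 2115 and 1989 CPM with evacetrapib (E to H). Its genotypes overlapped widely, with 3 of the 8 APPtg/CETPtg mice (S5, S6 and F) above every CETPtg mouse and 3 below the CETPtg median. The 95% interval of its log2 fold change reached from -0.06 to 0.16, and the value itself, 0.05, was 0.01 without S5. Aplp2, whose protein shares many functions with APP, lay between 611 and 651 CPM in the 8 CETPtg mice (median 618) and between 584 and 608 CPM in the 8 APPtg/CETPtg mice (median 594). All 8 APPtg/CETPtg mice were thus below all 8 CETPtg mice, which held for 1 of the 9 members in this direction or the other and for 3.03% of all genes tested. The difference was small, a log2 fold change of -0.07 (95% interval -0.12 to -0.01, adjusted p = 0.0711 by edgeR), and it passed by the Wald test of DESeq2 (adjusted p = 0.00492) and by edgeR without APPtg/CETPtg evacetrapib replicate G (adjusted p = 0.0413). Aplp1 lay between 1299 and 1489 CPM in CETPtg mice (median 1377) and between 1386 and 1566 CPM in APPtg/CETPtg mice (median 1471), and 3 of the 8 APPtg/CETPtg mice were above every CETPtg mouse. Its log2 fold change was 0.09 (95% interval 0.02 to 0.17, adjusted p = 0.0783 by edgeR and 0.0460 by DESeq2), and without CETPtg evacetrapib replicate B the adjusted p by edgeR was 0.0276. With the trend removed, Aplp1 had a log2 fold change of 0.04 (adjusted p = 0.624) and Aplp2 of -0.04 (adjusted p = 0.338), while App, at 0.16 (adjusted p = 0.115), had the largest of the 3.

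Whether App follows Thy1 from mouse to mouse was asked after the data had been seen, since the Thy1 promoter drives the transgene. The highest Thy1 levels, 2063 CPM in S5, 1818 in F and 1420 in S6, were found in the 3 mice with the highest App, at 2720.3, 2389 and 2366 CPM. Within the 8 APPtg/CETPtg mice, App and Thy1 had a Pearson r of 0.80 (exact permutation p = 0.0135, adjusted p = 0.134 over 18 relations) and a Spearman rho of 0.62 (exact permutation p = 0.115, adjusted p = 0.414). With each treatment centred on its mean, r was 0.90 (exact permutation p = 0.0191). Without S5 and F, the mice farthest from the median of Thy1, r was 0.40, so the relation rests on those mice. In the 8 CETPtg mice, r was 0.60 (exact permutation p = 0.115, adjusted p = 0.448) and rho 0.62 (exact permutation p = 0.115, adjusted p = 0.414), with r of 0.83 after centring on each treatment (exact permutation p = 0.0469) and of 0.33 without A and B. A positive r of App with Thy1 was thus also seen in mice without the APP transgene. Aplp2 ran against Thy1 in APPtg/CETPtg mice, with r of -0.79 (exact permutation p = 0.0165, adjusted p = 0.134), rho of -0.79 (exact permutation p = 0.0279, adjusted p = 0.251) and r of -0.69 without S5 and F. Aplp1 ran with Thy1 in CETPtg mice, with r of 0.78 (exact permutation p = 0.0223, adjusted p = 0.134), rho of 0.81 (exact permutation p = 0.0218, adjusted p = 0.251) and r of 0.86 without A and B. None of the 18 relations of the 9 members in both genotypes passed after adjustment. How many reads of the human transgene were counted on mouse App was not tested.

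**Figure D3:**
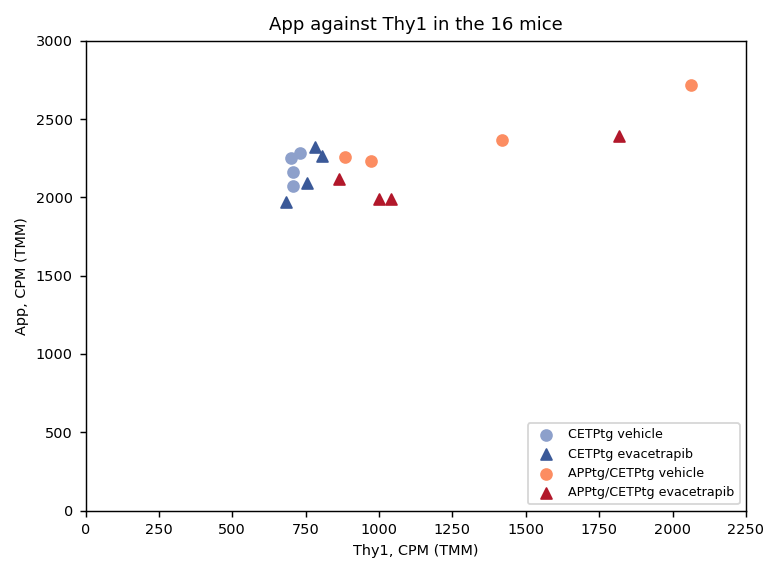
App (y) against Thy1 (x), both in CPM (TMM-scaled, axes from 0), with 1 point for each of the 16 mice by genotype and treatment. CETPtg mice lie at or below 807 CPM of Thy1, and the APPtg/CETPtg mice S5 and F, at 2063 and 1818 CPM of Thy1, have 2720.3 and 2389 CPM of App.

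Among the secretases other than Psenen, none passed between genotypes by edgeR. Adam10, the main α-secretase of neurons, had 82.2, 72.6, 74.5 and 73.9 CPM in CETPtg mice with vehicle and 78.0, 69.5, 76.7 and 76.6 CPM with evacetrapib. In APPtg/CETPtg mice it had 64.2, 72.5, 71.1 and 70.9 CPM with vehicle and 69.2, 77.3, 67.4 and 73.1 CPM with evacetrapib. The genotypes were apart under vehicle and overlapped under evacetrapib, where F was the highest of the APPtg/CETPtg mice and B the lowest of the CETPtg mice. Over both treatments the log2 fold change was -0.09 (95% interval -0.18 to -0.01, adjusted p = 0.111), and the gene passed without B (adjusted p = 0.0390) or without F (adjusted p = 0.0441). Ncstn, the part of the γ-secretase that receives the substrate, lay between 62.1 and 76.1 CPM in CETPtg and between 63.5 and 69.6 CPM in APPtg/CETPtg mice, with all 8 of the latter below the CETPtg median of 71.2. Its log2 fold change was -0.08 (95% interval -0.16 to -0.00, adjusted p = 0.151), and it passed without CETPtg evacetrapib replicate D, the lowest of its group (adjusted p = 0.0421). Bace1, which makes the first cut towards amyloid-β, lay between 105 and 112 CPM in CETPtg and between 94.2 and 111 CPM in APPtg/CETPtg mice, with a fold of 0.975 (95% interval 0.929 to 1.02). Psen2 and Aph1a, the presenilin and the scaffold of the complex, had folds of 0.988 (95% interval 0.912 to 1.07) and 1.00 (95% interval 0.934 to 1.08), and the direction of Aph1a changed with the trend removed. For these 3 genes the intervals hold the difference to folds between 0.912 and 1.08.

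Under each treatment alone the genotypes are given by the overlap of their mice. With vehicle, the 4 APPtg/CETPtg mice did not overlap the 4 CETPtg mice in 4 of the 9 members, higher in Aplp1 and Psenen and lower in Aplp2 and Adam10, against 17.0% of all genes tested. With evacetrapib, the groups were apart in 1 member, Aplp2, against 10.8% of all genes tested. For App, the group means were 2394 ± 225 and 2193 ± 95.6 CPM with vehicle (SD, n = 4 each) and 2121 ± 188 and 2162 ± 162 CPM with evacetrapib (SD, n = 4 each), APPtg/CETPtg first.

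Genes that act with the members were read from lists by role, beside the 17.7% of all genes tested that passed between genotypes. Bace2, a relative of Bace1, did not pass between genotypes (log2 fold change -0.15, 95% interval -0.36 to 0.06). Of 9 genes for adaptors that bind the tail of APP, 5 passed, a share above that of all genes: Apba3 (0.16), Apbb1 (0.16) and Apbb3 (0.14) were higher in APPtg/CETPtg mice, and Apbb2 (-0.23, adjusted p = 0.00115) and Apba1 (-0.15) were lower. Of 10 secretase regulators 1 passed, Timp3, an inhibitor of metalloproteases (-0.24, adjusted p = 0.000837). Of 9 sorting genes 1 passed, the clathrin adaptor gene Picalm (-0.10, adjusted p = 0.0484). Of 5 amyloid-β degrading enzymes 2 passed, Thop1 (0.16) and Mme, the gene of neprilysin (-0.24), and of 7 other substrates of the β-secretase 1 passed, Nrg1 (-0.27, adjusted p = 0.00228). The regulators, sorting genes and substrates, with 1 call each, were thus not above the share of all genes. With the length and GC trend removed, where 8.67% of all genes tested passed, the adaptors had 2 calls, Apbb2 and Apba1, and the calls of Timp3 and Thop1 were kept, while those of Picalm, Mme and Nrg1 were lost, with Picalm turning from -0.10 to 0.07 (adjusted p = 0.216) and Mme going from -0.24 to -0.03. Vps35, a retromer gene of the sorting list, went from -0.06 to 0.14 (adjusted p = 0.0259) in that setting.

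Some markers of cell types passed between genotypes, as did 17.7% of all genes tested, and in bulk tissue fewer cells of a type and less RNA per cell cannot be told apart. The oligodendrocyte markers Mobp (-0.23) and Mbp (-0.20) were lower in APPtg/CETPtg mice. Of 6 astrocyte markers 2 passed, both lower, Slc1a2 (-0.35), the most abundant, and Gja1 (-0.20). By direction alone, 4 of the 6 were lower and 2 were higher. The astrocyte sums, led by Slc1a2, were 2641 and 2821 CPM in the CETPtg groups and 2135 and 2439 CPM in the APPtg/CETPtg groups (vehicle and evacetrapib). Of 4 markers of oligodendrocyte precursors 1 passed, Pdgfra (-0.19), which was lower, and by direction alone 3 were lower and 1 was higher. Of 6 microglial markers 2 passed, both higher, Tmem119 (0.30) and C1qa (0.22), and by direction alone 5 were higher and 1 was lower. The microglial sums were 349 and 335 against 363 and 377 CPM, and Csf1r was the most abundant. Of 10 neuronal markers 1 passed, Stmn2 (0.14), which was higher, while by direction alone 4 were higher and 6 were lower. The neuronal sum, led by Snap25, was 8668 and 8948 against 8853 and 8587 CPM. The counts for neurons and precursors are near or below the share of all genes and say nothing about those cells. With the trend removed, the calls of Mobp, Slc1a2, Tmem119 and Stmn2 were kept and those of Mbp, Gja1, Pdgfra and C1qa were lost. The part of these markers in the values of the members was not tested.

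Treatment with evacetrapib was compared with vehicle over both genotypes and within each. None of the 9 members passed in any of these comparisons by edgeR. Over both genotypes, 0 of 9 members passed and 0 had an unadjusted p below 0.05, against 0.0107% of all genes tested (2, while 1472 were below an unadjusted p of 0.05), and 0 members passed by DESeq2 or limma-voom, which called 59 and 2 genes. In CETPtg mice, 0 of 9 members passed, with 0 at an unadjusted p below 0.05, and 0% of genes did (0 by each of edgeR, DESeq2 and limma-voom, while 1079 were below an unadjusted p of 0.05 by edgeR), with 0 members by DESeq2 or limma-voom. In APPtg/CETPtg mice, 0 of 9 members passed, with 1 at an unadjusted p below 0.05, against 0.043% of genes (8, while 1677 were below an unadjusted p of 0.05), and 0 members passed by DESeq2 or limma-voom, which called 73 and 7 genes. These shares are so low that a count of 0 members is what the background gives. The median log2 fold change of the members was -0.01 over both genotypes, -0.01 within CETPtg and -0.03 within APPtg/CETPtg animals, and that of all genes tested was -0.00 in each.

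App was the member with the smallest p under treatment over both genotypes and within APPtg/CETPtg mice, while in CETPtg mice it was Psenen (log2 fold change 0.08). In APPtg/CETPtg mice, 3 of the 4 evacetrapib-treated mice (E, G and H) had less App than every vehicle-treated mouse, at 1989 to 2115 CPM against 2231 to 2720.3 CPM, and F, with 2389 CPM, lay above 3 of the 4. The log2 fold change was -0.18 (95% interval -0.33 to -0.02, unadjusted p = 0.0249, adjusted p = 0.482, edgeR). It depended on single mice, with -0.11 without S5 (adjusted p = 0.771) and -0.23 without F (adjusted p = 0.257), and both mice were also those with the highest Thy1 of their groups. In CETPtg mice, App had a log2 fold change of -0.02 (95% interval -0.17 to 0.13), and over both genotypes of -0.10 (95% interval -0.21 to 0.01, adjusted p = 0.682). Aplp1 had log2 fold changes of 0.06 (95% interval -0.04 to 0.15) in CETPtg and -0.07 (95% interval -0.17 to 0.03) in APPtg/CETPtg mice, with all 4 evacetrapib-treated APPtg/CETPtg mice below the median of the vehicle-treated ones. Aplp2 was the most even member, with log2 fold changes of -0.01 (95% interval -0.08 to 0.07) and 0.00 (95% interval -0.07 to 0.08).

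Of the secretases, Bace1 had log2 fold changes of -0.01 in CETPtg (95% interval -0.10 to 0.09) and 0.07 in APPtg/CETPtg mice (95% interval -0.03 to 0.17), where vehicle replicate S5 was the lowest of all mice, with 94.2 CPM. Psenen had 0.08 (95% interval -0.05 to 0.22) and -0.03 (95% interval -0.16 to 0.11), and Adam10 had -0.01 (95% interval -0.13 to 0.11) and 0.04 (95% interval -0.08 to 0.16). For Ncstn, Aph1a and Psen2 the log2 fold changes lay between -0.03 and -0.00 in CETPtg and between -0.07 and -0.02 in APPtg/CETPtg mice. Over both genotypes the intervals of all 9 members stayed between a fold of 0.866 (App) and 1.09 (Psenen). In none of the 9 were the evacetrapib- and vehicle-treated mice apart, within CETPtg mice (3.92% of all genes tested), within APPtg/CETPtg mice (4.29%) or over both (0.0537%).

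**Figure D4:**
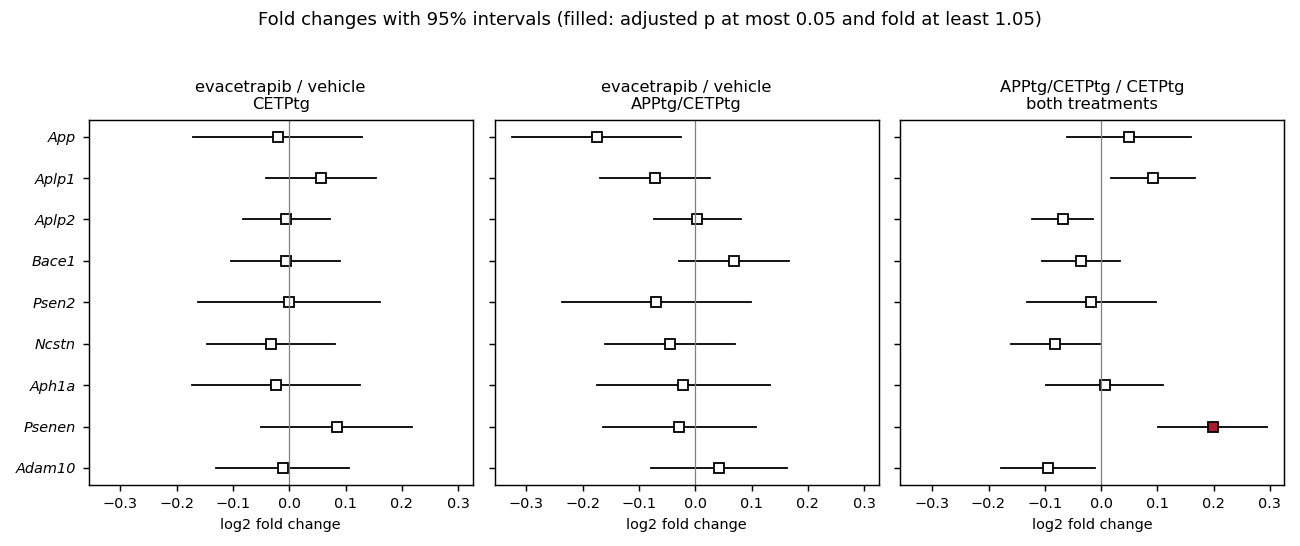
Log2 fold change (x) with its 95% interval for each member between evacetrapib and vehicle in each genotype and between genotypes, from edgeR on 16 mice, with filled symbols for genes past the thresholds. The only filled symbol is Psenen between genotypes (0.20), and App between treatments in APPtg/CETPtg mice (-0.18) has an interval below 0 but did not pass.

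The effects of evacetrapib in both genotypes were tested against each other, which asks whether the APP transgene changes the response of these genes. For 0 of the 9 members and 0% of all genes tested did the difference pass by edgeR, with 0 members and 1271 genes at an unadjusted p below 0.05. By DESeq2 0 members and 2 genes passed, and by limma-voom 0 and 0. App had a difference of -0.15 on the log2 scale (95% interval -0.37 to 0.06, adjusted p = 0.781, edgeR) and Aplp1 of -0.13 (95% interval -0.26 to 0.01, adjusted p = 0.738), so that in both genes the value was lower in APPtg/CETPtg mice. For App the interval still allows a fold of 0.775 between the effects. The median difference was -0.01 over the members and -0.00 over all genes tested.

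The related lists gave few leads under treatment. Over both genotypes, 0 genes of 5 lists passed by edgeR, and those with the smallest p were Apbb3 among the adaptors (-0.13, adjusted p = 0.269), Ece1 among the degrading enzymes (0.08), Scn2b among the substrates (0.08), Vps26a among the sorting genes (-0.07) and Gsap among the regulators (0.15). The value of Gsap joins opposite directions, with means of 7.43 CPM with vehicle and 6.42 CPM with evacetrapib in CETPtg mice and of 5.93 and 8.52 CPM in APPtg/CETPtg mice, and it passed neither within APPtg/CETPtg mice (log2 fold change 0.53, adjusted p = 0.293, edgeR) nor in the difference of effects (0.74, adjusted p = 0.703). At an unadjusted p below 0.05 there were 4 of the 9 adaptors and 0 genes of the other 4 lists, against 1472 of the 18609 genes tested. Of 4 smooth muscle markers 1 passed with treatment, Myh11, the most abundant, against 0.0107% of all genes tested. The smooth muscle sum was 19.8 against 28.6 CPM in CETPtg and 19.8 against 29.4 CPM in APPtg/CETPtg mice (vehicle and evacetrapib). None of 6 endothelial markers passed by edgeR. All 6 were higher at an unadjusted p below 0.05, a level that 1472 of the 18609 genes tested reached in either direction. The endothelial sum, led by Flt1, was 150.3 against 183 CPM and 149 against 194 CPM. The paper had already called Myh11 and other markers of both lists with evacetrapib in the same mice. The counts for these markers are thus not independent of that result. Lists for choroid plexus, pituitary and blood had 0 calls in the 5 comparisons, and the sum of the choroid plexus markers ranged from 10.1 to 460 CPM over the 16 mice. Of 5 pituitary markers 1 was tested, Pomc, with 148 CPM in APPtg/CETPtg evacetrapib replicate E and 0.971 to 9.74 CPM in the other 15 mice. The part of these markers in the values of the members was not tested.

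Ratios of members within a library do not depend on library scaling, and 4 were compared by exact permutation in 8 tests. The ratio of Bace1 to Adam10 counts, the enzymes that compete for APP, was 1.43 and 1.44 in CETPtg mice with vehicle and evacetrapib and 1.48 and 1.51 in APPtg/CETPtg mice (geometric means, n = 4 each). It did not differ detectably between treatments (log2 difference 0.02, exact permutation p = 0.640) or genotypes (0.06, exact permutation p = 0.142). The ratio of Psenen to Aph1a, parts of 1 complex, was 0.664 for CETPtg and 0.756 for APPtg/CETPtg mice. The log2 difference was 0.19 (exact permutation p = 0.0208, adjusted p = 0.16). With 1 mouse left out, the difference passed after adjustment in 1 of 16 fits, that without CETPtg vehicle replicate S1 (exact permutation, adjusted p = 0.0457). Without CETPtg evacetrapib replicate D the adjusted p by the same test was 0.261. Within the APP family, Aplp2 to App differed between genotypes by -0.12 (exact permutation p = 0.0588, adjusted p = 0.16) and Aplp1 to App between treatments by 0.09 (exact permutation p = 0.06, adjusted p = 0.16). Both rest in part on APPtg/CETPtg vehicle replicate S5, without which they were -0.08 (exact permutation p = 0.0931) and 0.05 (exact permutation p = 0.134). None of the 8 tests passed after adjustment.

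From mouse to mouse within groups, the members did not vary as a block. Of their 36 pairs, 19 had a positive and 17 a negative Pearson r after each group was centred on its mean (median 0.03, n = 16). The strongest was that of Psen2 and Adam10, with r of -0.68 (permutation p = 0.0123, adjusted p = 0.445) and rho of -0.64 (permutation p = 0.022, adjusted p = 0.615), and r of -0.59 without the 2 mice farthest from the median of Psen2. It was the only pair at an unadjusted p below 0.05 in r, and 0 pairs passed after adjustment over the 36. Parts of the γ-secretase were not drawn together either, with r between -0.40 (Psen2 and Psenen) and 0.42 (Psen2 and Aph1a) among its 6 pairs. Among 12776 genes with a mean of at least 100 counts, those most like App over the 16 mice, by r of group-centred log2 CPM, were Fn3k (0.90), Acsl1 (0.89), Anxa6 (0.87), Bcl2l1 (0.86) and Fig4 (0.85). For Bace1 they were Ulk1 (0.89), B4galt5 (0.88) and Sox18 (0.87), and for Adam10 they were Uhmk1 (0.90), Nfib (0.90) and Taok1 (0.89). These are the largest r among 12776 genes, given without a value for chance. The genes named for Adam10 had 40.6% to 44.3% GC in their longest transcript, against 42.1% for Adam10. The part of the length and GC trend in these r values was not tested.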

How the data were processed

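The deposited values were raw counts per gene in 16 mice, which the authors made from poly(A)-selected, directional, paired-end libraries with Trimmomatic 0.39, STAR 2.7.8a (mm10) and HTSeq, and 0 columns were left unmapped. The annotation and strand setting of the counting are not given in the sources used here. A gene entered the tests when 4 or more mice had 10 or more counts for it. The main test was the quasi-likelihood F test in edgeR 4.0.16 (R 4.3.3) at TMM library sizes, with Benjamini-Hochberg adjustment over all 18609 genes tested. To pass, a gene needed an adjusted p no higher than 0.05 and a fold no smaller than 1.05 in either direction. Treatment and genotype were terms of 1 model, and the effects within genotypes and their difference came from a model with 4 group means. All tests were two-sided. Of the steps, only the comparison of genotypes by edgeR, DESeq2 and limma-voom was tried on simulated counts. Those counts held no length or GC trend. Log2 CPM had a prior count of 2. Exon lengths (all exons) and GC content (longest transcript) came from GENCODE M21 (GRCm38), which holds 55227 of the 55487 identifiers. Ratios were tested by exact permutation, and pairs of members by 100000 permutations within groups.

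The genes named are the 9 members, Thy1, genes of the other lists, taken from those that passed in a comparison or had the smallest p of their list, Bace2, and the genes most like App, Bace1 and Adam10. The members and lists were chosen with earlier results of these data known, and Vps35 and genes that name a list's most abundant marker or its range were picked after their values were seen. Alternatives were DESeq2 1.42.0 (size factors, Wald test), limma-voom 3.58.1, other count filters, no term for the other factor, the 8 mice of a genotype alone, each mouse left out, and the longest transcript. Removal of the length and GC trend (splines with 5 degrees of freedom), the replicate block and the relation with Thy1 were added after seeing the data. Depth, between 21391335 and 55453789 counts per mouse, gave each member at least 367 counts in every mouse.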

Additional observations from a re-analysis of the deposited data

Results flagged for a closer look

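In 56 groups of values from 4 mice, those of the 9 members, of Thy1 and of 4 ratios of members, the highest and the lowest value were compared with the rest of their group, and in 4 groups 1 mouse lay apart by Dixon's test, where chance gives about 1 in 20 groups. Aplp2 was 608 CPM in APPtg/CETPtg evacetrapib replicate G against 592 to 594 CPM in the other 3 mice. Adam10 was 69.5 CPM in CETPtg evacetrapib replicate B, below the 76.6 to 78.0 CPM of the others. The ratio of Bace1 to Adam10 counts was 1.53 in APPtg/CETPtg vehicle replicate S6 and 1.46 to 1.47 in the others. In the same group, the ratio of Aplp1 to App counts was 0.533 in replicate S5, which had the highest App, and 0.662 to 0.674 in the others.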

How the results depend on the processing

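Psenen passed between genotypes under each planned setting and with the replicate block, and lost its call (0 members passed, 1614 genes) when the length and GC trend was removed. The Wald test of DESeq2 called 3 members there, with Aplp1 and Aplp2, and leaving out 1 mouse gave 1 to 3 members and 2503 to 3590 genes, with 3 without CETPtg evacetrapib replicate B (Aplp1 and Adam10 added), while Ncstn was added without D, Adam10 without F and Aplp2 without G. Under treatment and for the difference of effects, 0 members passed in any setting. Genes called over both genotypes were 59 by DESeq2, 35 with no count filter, 1 with no genotype term, 3 with the replicate block and 0 to 8 with 1 mouse left out (8 without S8). Within CETPtg mice, 9 genes passed with no count filter and 0 in the other settings. Within APPtg/CETPtg mice, there were 73 by DESeq2, 88 with no count filter, 2 with the 8 mice alone, 5 with the replicate block and 0 to 14 with 1 mouse left out (0 without G, 14 without S8). The difference of effects had 2 genes by DESeq2, 29 with no count filter and 0 to 1 with 1 mouse left out (1 without S2). The causes were not tested.

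The numbers in the header of the count table were used as the replicate block after seeing the data. They do not pair the mice, since same-numbered mice of different groups had a median correlation of deviations of -0.01 (-0.20 to 0.17, 1 of 24 above 0.1), and the block changed no call on a member. With 1 mouse left out, the log2 ratio of Bace1 to Adam10 between treatments ran from -0.00566 (without S1) to 0.0323 (without F), with the sign changed without B or S1, and that of Psenen to Aph1a between genotypes from 0.15 to 0.23. That of Aplp1 to App between treatments was 0.05 without S5, against 0.09 with all mice. Of the members' log2 fold changes, the sign changed in 6 of 144 values with 1 mouse left out and in 1 of 72 in other settings between genotypes, in 17 of 144 and 2 of 72 between treatments over both genotypes, in 26 and 10 in CETPtg mice, in 7 and 2 in APPtg/CETPtg mice, and in 16 of 144 and 6 of 63 for the difference of effects. None of these sign changes was in a value that passed. With 4 mice in a group, the intervals of the members within a genotype are wide, and plate position, cell composition and genotype cannot be told apart.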
